A study of Homo sapiens with 12 samples.

Results

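The effect of NGFR knockdown on RNA was followed in H460 cells across all measured genes, with attention to genes outside the known targets of p53. H460 is an established human non-small-cell lung cancer line that carries wild-type p53, and both groups were grown in DMEM with fetal bovine serum and transfected, either with a control siRNA (siCont) or with an siRNA against NGFR (siNGFR). The comparison used every H460 library, 3 siNGFR against 3 siCont, which is 6 of the 12 libraries of the study. The other 6 come from H1299, a lung cancer line without p53 transfected in the same way with a control or an NGFR siRNA, and they entered only a final test of whether the lines responded differently. The libraries were submitted as biological replicates, and their column numbers 4, 5 and 6 name them here. The H1299 knockdown samples carry a 3 in their names that the H460 samples lack, so whether the lines received the same NGFR siRNA is not known here. The sequence of the NGFR siRNA and the time from transfection to RNA extraction were not used here, and all values come from 1 cell line. Of 64253 genes in the count table, 19829 had enough counts in H460 to be tested.

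NGFR encodes p75NTR, a receptor of the tumour necrosis factor receptor family that binds neurotrophins and signals through adaptor proteins rather than a kinase of its own. p53 is a transcription factor that MDM2 keeps at a low level, and its best known targets arrest the cell cycle or trigger cell death. The study asked how the loss of NGFR changes expression where p53 is present and where it is absent. The groups of genes described below were chosen around stress responses, growth, lipids, adhesion and small nuclear RNAs.

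The 6 libraries held 19107878 to 27832622 counts. NGFR itself was not measurable, with 2, 3 and 1 counts in siCont replicates 4, 5 and 6 and 0, 3 and 1 in siNGFR replicates 4, 5 and 6. The target transcript therefore gives no check of the labels, and the knockdown of NGFR RNA cannot be seen in these libraries. The keratin genes KRT8 and KRT18 were abundant in both groups, at 666 and 258 CPM (counts per 1000000, scaled by TMM) in siCont, while the epithelial markers EPCAM and CDH1 had at most 6 counts and 1 count in a library. Some markers of other cell types were scarce: PTPRC of leukocytes had at most 1 count, PECAM1 of endothelium at most 2 and DCN of fibroblasts at most 2. The 17 leukocyte markers together summed to 17.4 to 22.7 CPM in siCont and 12.2 to 16 CPM in siNGFR. For the 12 endothelial markers the sums were 12.4 to 18.1 CPM in siCont and 10.0 to 15.9 CPM in siNGFR. Sums were larger for 12 fibroblast markers (32.4 to 37.4 CPM in siCont, 37.7 to 42.7 in siNGFR) and 19 lung epithelial markers (39.5 to 48.8, 36.4 to 42.4). The 13 neural and neuroendocrine markers summed to 192 to 233 CPM in siCont and 192 to 252 CPM in siNGFR. Genes with under 400 bases of exon took 43.1%, 43.5% and 48.2% of the counts in siCont replicates 4, 5 and 6, and 50.5%, 53.1% and 55.6% in siNGFR replicates 4, 5 and 6. The groups did not overlap, and the means differed by 8.11 percentage points (two-sided exact permutation test, p = 0.1, the smallest that 3 against 3 can give). One library, siNGFR replicate 4, lay alone on the second principal component. RMRP (the RNA of the RNase MRP complex) took 2.56% of its counts, against 8.10% and 10.5% in siNGFR replicates 5 and 6. In siCont replicates 4, 5 and 6 RMRP took 3.42%, 3.17% and 2.16%, so on this measure siNGFR replicate 4 was near the controls. In bulk RNA, a lower level per cell and a smaller share of cells with the transcript cannot be told apart.

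Between siNGFR and siCont, 360 genes were higher and 495 lower at an adjusted p under 0.05 (edgeR quasi-likelihood test, two-sided, Benjamini-Hochberg), which is 4.31% of the genes tested, 1.82% higher and 2.5% lower. Of these, 95 rose and 114 fell by more than 2-fold. The known p53 targets accounted for 40 of the rises and 5 of the falls, which left 320 higher and 490 lower genes outside them. Without genes under 400 bases, refitted from the remaining counts, 561 genes were higher and 607 lower among 17890 (6.53%, 3.14% higher and 3.39% lower), and 345 of the 360 higher and 431 of the 495 lower genes stayed called. The number of calls rested on single libraries: without siNGFR replicate 4 it was 882 higher and 668 lower, without siNGFR replicate 5 it was 100 and 111, and without siCont replicate 5 it was 92 and 161. When counts were scaled by library size alone, in place of TMM, which sets the bulk of genes to no change, 155 genes were higher and 4209 lower, so every change below is relative to the middle of all genes. Outside the p53 targets, 58 higher and 100 lower genes kept an adjusted p under 0.05 whichever library was left out.

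**Figure D1:**
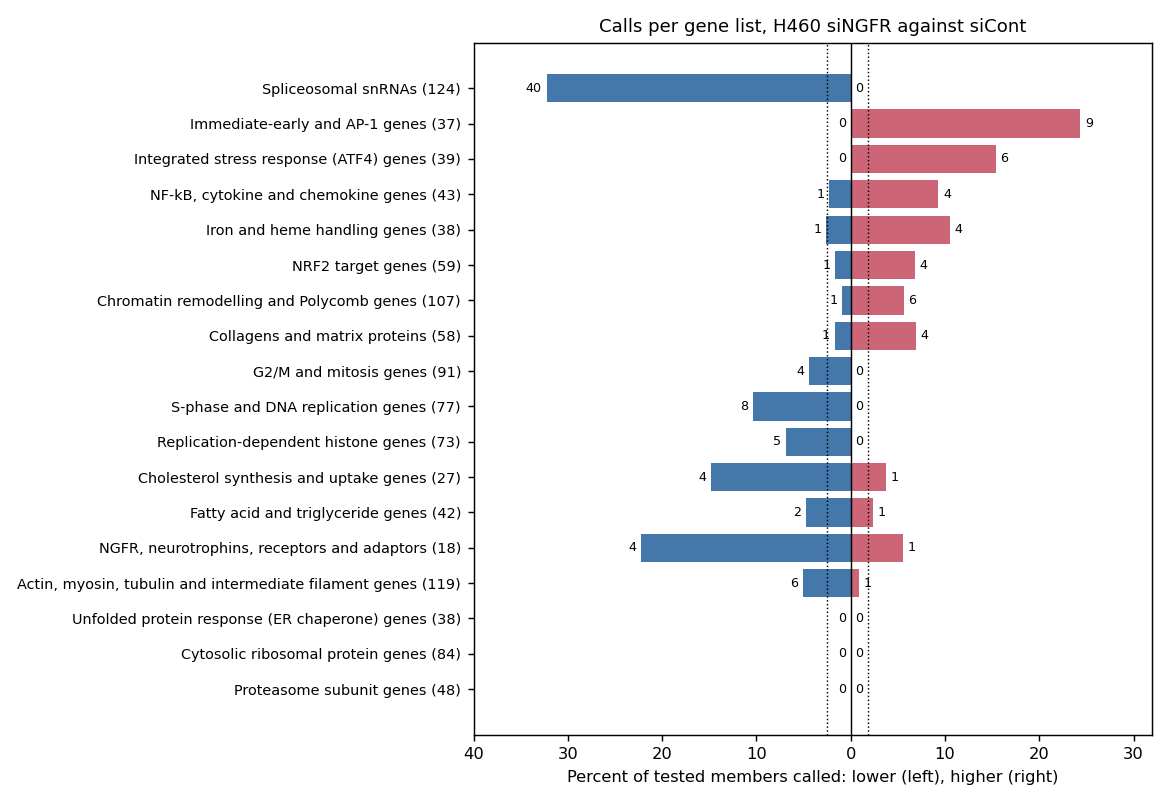
Share of the tested members of each gene list (number tested in brackets) called lower (left, blue) or higher (right, red) with siNGFR, in percent, with the number of genes at the end of each bar. Dotted lines mark the shares over all genes, 1.82% higher and 2.5% lower. The spliceosomal snRNAs had the longest bar to the left and the immediate-early genes the longest to the right of the lists drawn.

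Many genes for the small nuclear RNAs of the spliceosome fell with siNGFR. These RNAs form the core of the machinery that removes introns: U1 pairs with the start of an intron, U2 with its branch point, U4, U5 and U6 complete the major spliceosome, and U11, U12, U4atac and U6atac serve the rare class of minor introns. Their genes have many near-identical copies that share reads, so the copies are not independent. Sums over a family can hold the same reads more than once, so they compare the groups and are not abundances. Of 124 tested snRNA genes, 40 were called lower and 0 higher (32.3% lower, against 2.5% of all genes), with a median log2 change of -0.84 against 0.01 over all genes. These falls numbered 39, 20 and 23 when siCont replicates 4, 5 and 6 were left out in turn, and 40, 1 and 21 when siNGFR replicates 4, 5 and 6 were. The snRNA median stayed between -1.0 and -0.58 in those fits. With counts scaled by library size alone, 90 of the 124 were lower, but so were 4209 of all 19829 genes. The medians under that scaling were -1.18 for snRNAs and -0.32 for all genes.

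U12, U1 and U2, which pair with the intron in the minor and the major spliceosome, are shown here in the letters of GRCh38 with the pairing part in capitals (from GENCODE 29 transcripts), U12 at chr22:42615244-42615393 on the plus strand, U1 from RNU1-1 at chr1:16514122-16514285 on the minus strand and U2 from RNU2-2P at chr11:62841619-62841809 on the minus strand.
RNU12 (U12): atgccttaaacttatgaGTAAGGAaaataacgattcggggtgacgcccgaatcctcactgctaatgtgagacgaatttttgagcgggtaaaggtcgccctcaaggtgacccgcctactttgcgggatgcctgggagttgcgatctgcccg
RNU1-1 (U1): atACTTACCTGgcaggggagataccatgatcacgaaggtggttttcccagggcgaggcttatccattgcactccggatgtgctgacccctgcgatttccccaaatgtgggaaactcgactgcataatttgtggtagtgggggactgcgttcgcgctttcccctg
RNU2-2P (U2): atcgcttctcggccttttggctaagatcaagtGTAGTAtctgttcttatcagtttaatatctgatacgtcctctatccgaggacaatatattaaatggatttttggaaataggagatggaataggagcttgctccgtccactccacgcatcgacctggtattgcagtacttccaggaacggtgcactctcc

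The summed U1 copies gave 20377, 16049 and 27206 CPM in siCont replicates 4, 5 and 6 and 11585, 9645 and 11153 CPM in siNGFR replicates 4, 5 and 6. Every siNGFR library lay below every siCont library, and the siCont mean was 1.96 times the siNGFR mean. For U2 the sums were 2449.9, 3799 and 6016 CPM against 1766, 2001 and 1983 CPM, again without overlap, and the spread among siCont libraries was wide. The sums of U4 were 157, 91 and 128 CPM against 58.7, 54.6 and 69.9 CPM. For U5, 1 of 9 tested copies was called lower, and for U6, 1 of 16. The summed U5 ranges, 342 to 742 CPM and 256 to 383 CPM, overlapped, while the U6 ranges, 24.1 to 39 CPM and 19.2 to 23.8 CPM, did not. Of 7 tested copies of U6atac, none passed the test by edgeR, and 7 had a log2 change below 0.

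U12 had the lowest ratio of siNGFR to siCont sums among these families (0.314). Its mature gene gave 79.3, 55.2 and 101 CPM in siCont replicates 4, 5 and 6 and 30.7, 20.3 and 20.8 CPM in siNGFR replicates 4, 5 and 6, so the highest siNGFR value was well under the lowest siCont value. It fell by 1.72 on the log2 scale (SE 0.21, adjusted p = 0.000834). In the deposited counts the name RNU12 belongs to a longer noncoding gene model that starts at the same base, not to the mature gene printed above. This longer model shares the exon of the mature gene and took nearly the same counts, so its fall of 1.63 (adjusted p = 0.00107) is the same measurement. RNU11 went from between 6.31 and 8.92 to between 2.72 and 4.22 CPM, a fall of 1.09 (SE 0.20, adjusted p = 0.00920), and RNU4ATAC from between 3.93 and 6.31 to between 2.59 and 2.63 CPM, a fall of 0.96 (SE 0.20, adjusted p = 0.0181). Hence U11, U12 and U4atac of the minor spliceosome all passed the test, whereas RNU6ATAC did not (log2 change -0.82, SE 0.25, adjusted p = 0.0925).

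Among the major snRNAs, RNU1-1 gave 2107, 1641 and 2793 CPM in siCont replicates and 1200.2, 979.8 and 1141 CPM in siNGFR replicates (log2 change -0.98, SE 0.19, adjusted p = 0.0130). RNU4-2 gave 49.4, 29.6 and 43.6 CPM against 20.2, 16.9 and 23.6 CPM (log2 change -1.01, SE 0.18, adjusted p = 0.00746). Both were lower in all siNGFR libraries than in any siCont library. RNU2-2P lies inside an exon of WDR74, a ribosome biogenesis gene on chromosome 11, and held 91.3% as many counts as WDR74 did. WDR74 went from between 569.9 and 1220.3 to between 426 and 463 CPM (log2 change -1.0, adjusted p = 0.0212) and RNU2-2P from between 509 and 1148 to between 365 and 416 CPM (log2 change -1.06, adjusted p = 0.0202), so the reads of WDR74 cannot be told apart from those of U2. In the libraries the size classes moved in opposite directions: genes under 200 bases fell from 3.63% to 5.31% of counts in siCont to 2.16% to 2.55% in siNGFR, while the whole class under 400 bases rose, and the part of RNA size selection in either was not tested.

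**Figure D2:**
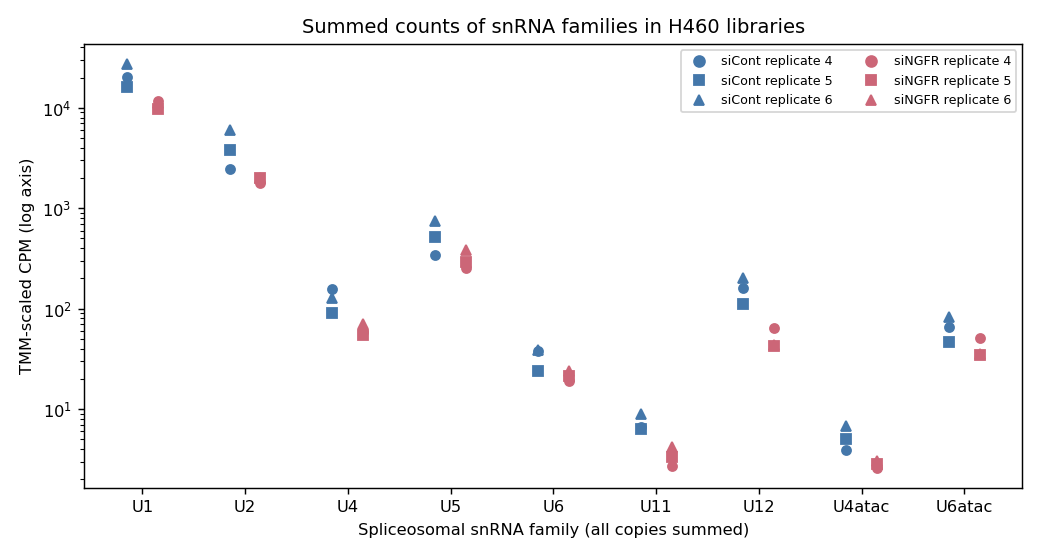
Summed TMM-scaled CPM (log axis) of all copies of 9 snRNA families in the 3 siCont (blue) and 3 siNGFR (red) H460 libraries, with a point per library and a marker shape per replicate number. The siNGFR points lie below the siCont points for U1, U2, U4, U6, U11, U12 and U4atac, and overlap them for U5 and U6atac.

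Genes that break down heme and move iron out of the cell were among the largest rises. HMOX1, heme oxygenase, which opens the heme ring and frees its iron, gave 63.7, 50.4 and 56.1 CPM in siCont replicates 4, 5 and 6 and 237, 213 and 217 CPM in siNGFR replicates 4, 5 and 6. The siNGFR values lay far above the siCont values with little spread in either group, a 3.92-fold rise (log2 change 1.97, SE 0.12, adjusted p = 1.59e-05). SLC40A1, ferroportin, the exporter of iron, gave 5.80, 6.42 and 5.48 CPM against 19.3, 19.4 and 18.8 CPM. That was a 3.25-fold rise (log2 change 1.70, SE 0.12, adjusted p = 2.72e-05), and both genes stayed called whichever library was left out.

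Of the other genes of iron and heme handling, BLVRB, a biliverdin reductase, rose from 106 ± 17.2 to 162 ± 11 CPM (mean ± SD, n = 3 each, log2 change 0.62, adjusted p = 0.0207). FTH1, the ferritin heavy chain that stores iron, rose from 90.0 ± 6.17 to 136 ± 17.5 CPM (log2 change 0.60, adjusted p = 0.0168). FTH1 overlaps the gene BEST1 on the opposite strand, which rose by 0.66, and the counting was not stated to use strand. ABCB6, a porphyrin transporter, fell from 65.7 ± 5.72 to 48 ± 2.05 CPM (log2 change -0.45, adjusted p = 0.0348). The light chain gene FTL and the transferrin receptor gene TFRC were not called (log2 changes -0.10 and -0.02, SE 0.19 and 0.12). In all, 4 of 38 genes of iron and heme handling rose and 1 fell (10.5% and 2.63%, against 1.82% and 2.5% of all genes), with a median log2 change of -0.02. The rises in this list numbered 4, 2 and 2 when siCont replicates 4, 5 and 6 were left out in turn, and 5, 2 and 3 when siNGFR replicates 4, 5 and 6 were. Targets of NRF2, the oxidant-responsive factor that also controls HMOX1, gave 4 rises and 1 fall among 59 (6.78% higher, against 1.82% of all genes), of which only ABCC1, a drug and glutathione conjugate exporter (47.8 to 68.7 CPM, log2 change 0.52), is no member of the iron list. NRF2 targets called higher numbered 4, 1 and 1 when siCont replicates 4, 5 and 6 were left out in turn, and 8, 1 and 3 when siNGFR replicates 4, 5 and 6 were. The classical targets NQO1, TXNRD1, GCLM and SLC7A11 had log2 changes of 0.07, 0.05, -0.39 and 0.13 and did not pass the test.

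Several immediate-early genes rose. These genes are switched on within minutes of a growth or stress signal and many encode parts of AP-1, the JUN and FOS family factor. Of 37 tested members, 9 were higher and 0 lower (24.3% higher, against 1.82% of all genes), with a median log2 change of 0.16. The members were BTG2, ATF3, JUN, IER5, IER3, TIPARP, NR4A1, KLF4 and FOSL2, of which BTG2, ATF3, IER5, IER3 and KLF4 are also on the list of p53 targets. When counts were scaled by library size alone, which moves the median of all genes to -0.32, the list gave 3 rises and 5 falls. Over all 19829 genes that scaling gave 155 rises and 4209 falls. The rises numbered 9, 4 and 4 when siCont replicates 4, 5 and 6 were left out in turn, and 10, 4 and 8 when siNGFR replicates 4, 5 and 6 were.

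JUN gave 4.89, 4.05 and 3.50 CPM in siCont replicates 4, 5 and 6 and 8.77, 11 and 9.76 CPM in siNGFR replicates 4, 5 and 6. All siNGFR libraries were above all siCont libraries, a 2.39-fold rise (log2 change 1.25, SE 0.16, adjusted p = 0.00118). BTG2, an antiproliferative gene, went from 1.46, 1.23 and 1.18 to 5.59, 5.81 and 6.60 CPM, a 4.66-fold rise (log2 change 2.22, SE 0.19, adjusted p = 0.000134). ATF3, a stress-induced ATF family factor, rose by 1.56 from at most 1.08 CPM in siCont, and the remaining members rose less than JUN: KLF4 by 0.62, IER5 by 0.71, IER3 by 0.70, TIPARP by 0.69, the nuclear receptor NR4A1 by 0.68 and the AP-1 subunit FOSL2 by 0.54 on the log2 scale (adjusted p from 0.00426 to 0.0379). Of 36 genes of the RAS-MAPK pathway and its feedback, 3 rose and 2 fell (8.33% and 5.56%, against 1.82% and 2.5% of all genes). The rises were in feedback inhibitors, DUSP1 from between 24.4 and 25.7 to between 32.9 and 35.5 CPM, PHLDA1 from between 11.1 and 12.6 to between 15.7 and 16.9 CPM and ERRFI1 from between 14.8 and 15.7 to between 19 and 23.5 CPM. On the same pathway NRAS fell from between 16.2 and 19.6 to between 11 and 12.9 CPM and CCND1, cyclin D1, from between 57.2 and 68.9 to between 37.4 and 45.2 CPM (log2 changes -0.62 and -0.60). Rises in the RAS-MAPK list numbered 0, 0 and 0 when siCont replicates 4, 5 and 6 were left out in turn, and 5, 0 and 1 when siNGFR replicates 4, 5 and 6 were. Its falls numbered 0 without siCont replicate 5 or siNGFR replicate 5. Scaling by library size alone left no rise and 13 falls in this list, and 155 rises and 4209 falls among all 19829 genes.

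**Figure D3:**
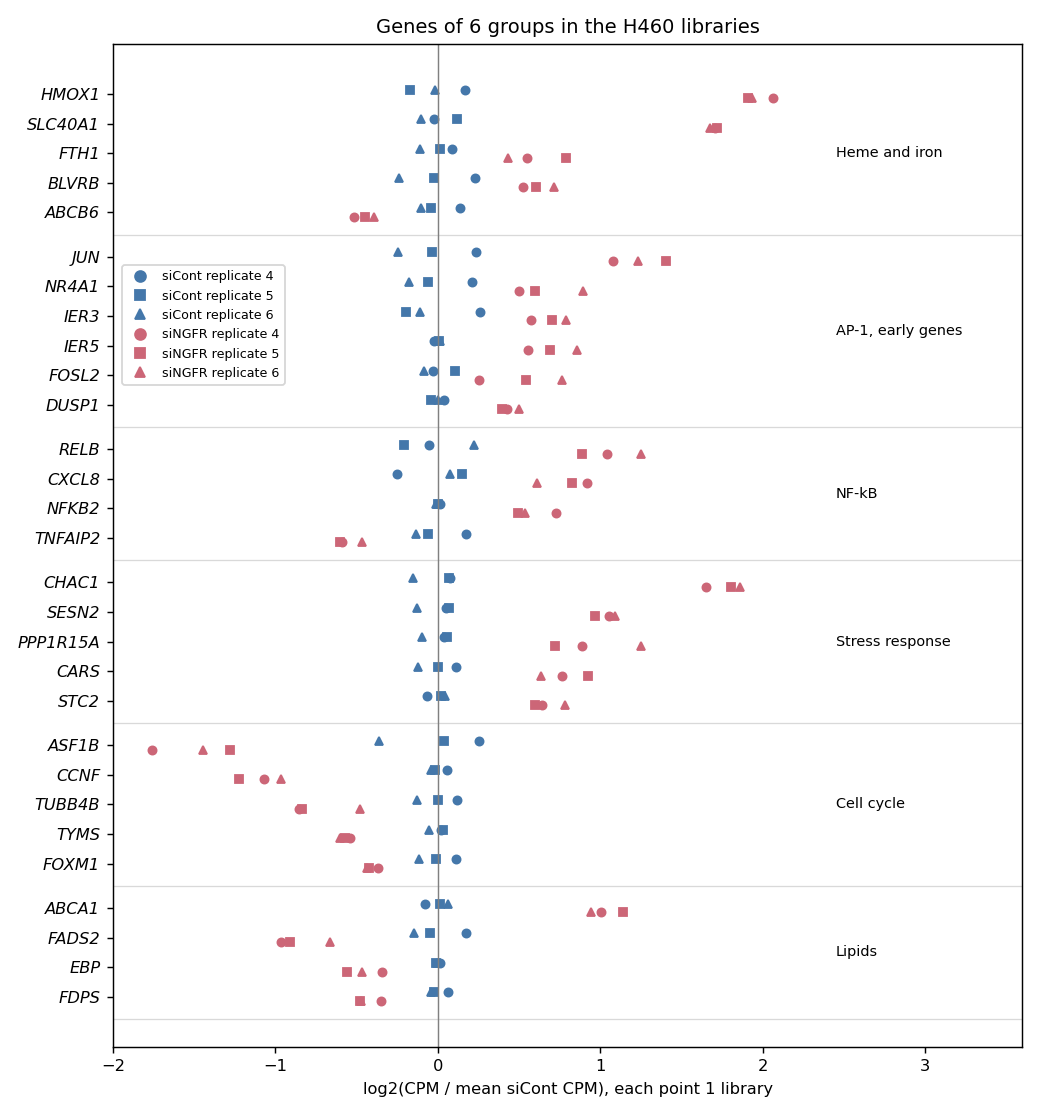
Log2 of each library's CPM over the mean siCont CPM for genes of 6 groups, with siCont in blue, siNGFR in red and a marker shape per replicate number. All genes drawn had groups that did not overlap. HMOX1, SLC40A1 and CHAC1 lie farthest to the right and ASF1B farthest to the left.

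Genes of the NF-κB pathway and its cytokines gave 4 rises and 1 fall among 43 tested (9.30% and 2.33%, against 1.82% and 2.5% of all genes, median log2 change 0.23). RELB and NFKB2, the partners of the noncanonical NF-κB dimer, both rose. RELB gave 3.38, 3.03 and 4.09 CPM in siCont and 7.20, 6.49 and 8.36 CPM in siNGFR, a 2.09-fold rise without overlap (log2 change 1.07, SE 0.17, adjusted p = 0.00433). NFKB2 gave 41.3, 41 and 40.7 CPM against 67.9, 57.7 and 59.5 CPM (log2 change 0.59, SE 0.11, adjusted p = 0.00905), and MAP3K14, the kinase that activates this arm, went from between 18 and 21.6 to between 27.2 and 29.8 CPM (log2 change 0.56, adjusted p = 0.0146; singled out after its value was seen). The chemokine gene CXCL8 rose from 9.46, 12.5 and 11.9 to 21.3, 20.0 and 17.2 CPM (log2 change 0.79, SE 0.13, adjusted p = 0.00644). IL1A, which encodes interleukin 1 alpha, rose by 1.53 from a level of under 1 CPM in every siCont library, and TNFAIP2 fell from between 243 and 299.8 to between 175 and 193 CPM (log2 change -0.55, adjusted p = 0.0250). Rises in this list numbered 4, 3 and 4 when siCont replicates 4, 5 and 6 were left out in turn, and 6, 3 and 5 when siNGFR replicates 4, 5 and 6 were.

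ATF4 is the factor of the integrated stress response that follows amino acid shortage and other blocks of translation. Its targets gave 6 rises and no fall among 39 tested (15.4% higher, against 1.82% of all genes, median log2 change 0.21). CHAC1, which degrades glutathione, gave 1.10, 1.09 and 0.937 CPM in siCont replicates 4, 5 and 6 and 3.27, 3.65 and 3.78 CPM in siNGFR replicates 4, 5 and 6, a 3.43-fold rise in a gene of few counts (log2 change 1.78, SE 0.21, adjusted p = 0.000671). SESN2, a sestrin that restrains mTORC1 and is also a p53 target, gave 11.9, 12.1 and 10.5 CPM against 23.9, 22.6 and 24.5 CPM. It rose by 1.04 (SE 0.11, adjusted p = 0.000524), with no overlap of the groups. PPP1R15A, which helps to restart translation, rose by 0.97 (adjusted p = 0.00987), STC2, a secreted glycoprotein, by 0.68 (adjusted p = 0.00370) and NUPR1, a small stress-induced nuclear protein, by 2.44 (adjusted p = 0.00462). ATF4 targets called higher numbered 6, 6 and 6 when siCont replicates 4, 5 and 6 were left out in turn, and 8, 5 and 6 when siNGFR replicates 4, 5 and 6 were. When counts were scaled by library size alone the ATF4 list gave 5 rises and 7 falls, and the NF-κB list 3 and 3. All 19829 genes gave 155 rises and 4209 falls under that scaling.

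The charging enzymes of cysteine and serine tRNA, CARS and SARS, rose from between 13.7 and 16.1 to between 23.2 and 28.3 CPM (log2 change 0.78, SE 0.12, adjusted p = 0.00303) and from between 52 and 63.7 to between 78.3 and 90.5 CPM (log2 change 0.53, SE 0.12, adjusted p = 0.0250). No other of the 23 aminoacyl-tRNA synthetase genes passed the test (8.70% higher, against 1.82% of all genes). DDIT3, TRIB3 and ASNS, which are common readouts of ATF4, had log2 changes of 0.59, 0.29 and 0.25 with adjusted p of 0.0579, 0.190 and 0.243, though each of them was higher in all siNGFR libraries than in any siCont library, as were 11% of all genes. The chaperone genes of the unfolded protein response, a separate branch of endoplasmic reticulum stress, gave 0 calls among 38 by edgeR and 0 by DESeq2, with 6 at an unadjusted p under 0.05 and a median log2 change of 0.03.

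The start sites of JUN, CHAC1 and CXCL8 are shown because each rose and holds letters that AP-1, ATF or NF-κB factors are known to bind. The 250 bases before the start (RefSeq, GRCh38.p14) are given on the gene's strand, JUN at chr1:58784048-58784297 (minus), CHAC1 at chr15:40953221-40953470 (plus) and CXCL8 at chr4:73740319-73740568 (plus), with matches to TGANTCA (AP-1), TGACNTCA (its longer, CRE-like form), TGATGNAA (C/EBP-ATF) and GGAATTTCC (NF-κB), searched on both strands, in capitals.
JUN: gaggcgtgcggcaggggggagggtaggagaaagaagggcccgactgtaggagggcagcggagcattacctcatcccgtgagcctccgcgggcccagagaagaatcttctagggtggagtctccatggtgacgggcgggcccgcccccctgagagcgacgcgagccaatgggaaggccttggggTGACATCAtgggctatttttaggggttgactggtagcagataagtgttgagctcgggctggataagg
CHAC1: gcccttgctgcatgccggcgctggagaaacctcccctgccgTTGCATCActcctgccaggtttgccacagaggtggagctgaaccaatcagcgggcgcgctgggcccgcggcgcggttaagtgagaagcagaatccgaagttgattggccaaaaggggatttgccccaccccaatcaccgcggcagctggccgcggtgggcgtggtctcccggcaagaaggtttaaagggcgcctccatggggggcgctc
CXCL8: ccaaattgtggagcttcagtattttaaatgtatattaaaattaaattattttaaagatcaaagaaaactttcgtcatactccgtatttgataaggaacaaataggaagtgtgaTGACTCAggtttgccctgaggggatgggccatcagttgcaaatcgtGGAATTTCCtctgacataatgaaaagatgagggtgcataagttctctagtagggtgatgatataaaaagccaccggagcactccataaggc

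In JUN the match to TGACNTCA began 67 bases before the start, in CHAC1 the match to TGATGNAA, on the opposite strand, began 209 bases before it, and in CXCL8 TGANTCA began 137 and GGAATTTCC 91 bases before it. TGANTCA was found in 6.57% of 35116 promoters, TGACNTCA in 6.87%, TGATGNAA in 3.14% and GGAATTTCC in 0.413%. A promoter was matched for 196 of the 320 genes that rose outside the p53 targets, and 9.69% of them held TGANTCA, against 5.98% of the 11115 tested genes with a promoter and 5.08% of 315 lower genes. For the other motifs the shares in rising and tested genes were 9.69% and 7.58% for TGACNTCA, 2.55% and 2.29% for TGATGNAA and 1.02% and 0.513% for GGAATTTCC. TTTGAA, a motif of cell cycle genes searched in the same way, was in 14.3% and 12.1%. Of the 8 called immediate-early genes with a promoter, 0 held TGANTCA and 3 held TGACNTCA. These are descriptions of letters, and binding was not measured.

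Several genes of the cell cycle fell. Among 91 genes of G2 and mitosis, 4 fell and 0 rose (4.40%, against 2.5% of all genes), the median log2 change was -0.22, and in 34 of them all siNGFR libraries were below all siCont libraries, a pattern that 13% of all genes showed. Among 77 genes of S phase and replication, 8 fell and 0 rose (10.4%), with a median of -0.20 and 30 without overlap. Mitotic genes called lower numbered 2, 1 and 3 when siCont replicates 4, 5 and 6 were left out in turn, and 10, 1 and 2 when siNGFR replicates 4, 5 and 6 were. S-phase genes called lower numbered 5, 1 and 2 when siCont replicates 4, 5 and 6 were left out in turn, and 12, 1 and 3 when siNGFR replicates 4, 5 and 6 were. The medians stayed between -0.25 and -0.15 and between -0.21 and -0.13.

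ASF1B, a histone chaperone of the replication fork, gave 33.8, 29.1 and 22.1 CPM in siCont replicates 4, 5 and 6 and 8.36, 11.7 and 10.4 CPM in siNGFR replicates 4, 5 and 6. It fell 2.78-fold with no overlap (log2 change -1.48, SE 0.17, adjusted p = 0.000524). CCNF, cyclin F, a component of a ubiquitin ligase active in G2, gave 21, 20.0 and 19.6 CPM against 9.62, 8.65 and 10.4 CPM, a 2.12-fold fall with tight groups (log2 change -1.08, SE 0.12, adjusted p = 0.000524). Smaller falls were those of the tubulin gene TUBB4B (-0.71), of UBE2C, an enzyme of the anaphase-promoting complex (-0.47), and of FOXM1, the transcription factor of mitotic genes (-0.41). Enzymes that supply deoxynucleotides fell as well, TYMS from between 47.5 and 50.6 to between 32.5 and 34 CPM, DUT from between 17.4 and 20.9 to between 11.1 and 15 CPM and RRM2 from between 95.6 and 111 to between 73.8 and 78.1 CPM (log2 changes -0.57, -0.57 and -0.46). TYMS shares exon sequence with ENOSF1 on the opposite strand. Cyclin I, encoded by CCNI, gave 25, 23.8 and 22.9 CPM against 12.9, 10.9 and 11.8 CPM (log2 change -1.01, SE 0.11, adjusted p = 0.000524).

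Of 73 replication-dependent histone genes, which are transcribed in S phase, 5 fell and 0 rose (6.85%, against 2.5% of all genes). HIST1H2AM went from between 68.5 and 95.7 to between 38.5 and 57.9 CPM, HIST2H2AB from between 48.6 and 65.9 to between 36.1 and 42.3 CPM and HIST1H1B, a linker histone, from between 181 and 207 to between 132 and 150.2 CPM (log2 changes -0.73, -0.58 and -0.45). Histone genes are close copies, and HIST1H2AM overlaps HIST1H3J. Histone genes called lower numbered 0, 2 and 1 when siCont replicates 4, 5 and 6 were left out in turn, and 10, 0 and 6 when siNGFR replicates 4, 5 and 6 were. H1FX, a linker histone gene that is not tied to replication, gave 31.6, 31.5 and 29.9 CPM in siCont and 11.5, 11.8 and 14.6 CPM in siNGFR, a fall of 1.30 (SE 0.12, adjusted p = 0.000241) that held whichever library was left out. H1FX-AS1, on the opposite strand, shares 247 bases of its exons.

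A few enzymes of cholesterol synthesis and fatty acid desaturation fell. Of 27 genes of cholesterol synthesis and uptake, 4 fell and 1 rose (14.8% lower, against 2.5% of all genes, median log2 change -0.14). FDFT1, squalene synthase, fell by 0.52, EBP, a sterol isomerase, by 0.45 and FDPS, which makes farnesyl diphosphate, by 0.43 (adjusted p from 0.0162 to 0.0339). ABCA1, which exports cholesterol from the cell, was the member that rose, from 2.51, 2.68 and 2.78 to 5.34, 5.85 and 5.10 CPM (log2 change 1.03, SE 0.16, adjusted p = 0.00421). Falls in this list numbered 2, 1 and 1 when siCont replicates 4, 5 and 6 were left out in turn, and 5, 1 and 1 when siNGFR replicates 4, 5 and 6 were. ABCA1 stayed called in each of those fits.

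Of 42 fatty acid and triglyceride genes, 2 fell and 1 rose (4.76% and 2.38%, against 2.5% and 1.82% of all genes), and without siCont replicate 5, siCont replicate 6, siNGFR replicate 5 or siNGFR replicate 6 there was 1 fall and no rise. FADS2 and FADS1, the desaturases that open the synthesis of long polyunsaturated fatty acids, lie side by side on chromosome 11 and share exon sequence on opposite strands, so their reads are not fully separate. FADS2 gave 163, 140.0 and 131 CPM in siCont and 74, 76.8 and 91.3 CPM in siNGFR. It fell 1.79-fold (log2 change -0.84, SE 0.13, adjusted p = 0.00310), and FADS1 fell by 0.47 (adjusted p = 0.0287). PLIN2, a coat protein of lipid droplets, rose from between 6.71 and 7.55 to between 9.41 and 10.9 CPM (log2 change 0.51, adjusted p = 0.0452).

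Transcripts of proteins that work with the receptor were counted as a list, each gene by its own test and with no test of the list. Of 18 tested genes for neurotrophins, their receptors and adaptors, 4 fell and 1 rose (22.2% and 5.56%, against 2.5% and 1.82% of all genes). RTN4, Nogo, the myelin inhibitor whose receptor complex can contain p75NTR, gave 25.8, 28.2 and 29.8 CPM in siCont and 15.4, 13.8 and 15.1 CPM in siNGFR (log2 change -0.92, SE 0.11, adjusted p = 0.000735). MAGED1, also called NRAGE, an intracellular partner of p75NTR, fell from between 79.7 and 93.7 to between 55.8 and 61.3 CPM (log2 change -0.56, adjusted p = 0.0131), and TNFRSF19, a receptor related to p75NTR, fell by 0.80 (adjusted p = 0.0355). TRAF4, an adaptor of the same receptor family, rose from between 45.9 and 56.3 to between 71 and 81.4 CPM (log2 change 0.55, adjusted p = 0.0175). Falls of these genes numbered 2, 1 and 2 when siCont replicates 4, 5 and 6 were left out in turn, and 4, 1 and 3 when siNGFR replicates 4, 5 and 6 were. RTN4 kept its call in each.

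Single genes of adhesion, matrix and Wnt signalling rose or fell. The Wnt and Notch list gave 2 rises and 1 fall among 40 (5.0% and 2.5%), and integrins and laminins 2 rises and 1 fall among 29 (6.90% and 3.45%), against 1.82% and 2.5% of all genes. Without siCont replicate 5 or siNGFR replicate 5 each of these lists had 1 rise. CTNNB1, β-catenin, gave 94.1, 90.5 and 99.1 CPM in siCont and 57.1, 58.2 and 55.5 CPM in siNGFR, a fall of 0.73 with tight groups (SE 0.10, adjusted p = 0.00202). DKK1, a secreted inhibitor of Wnt, gave 0.228, 0.141 and 0.208 CPM against 1.71, 1.53 and 1.85 CPM, a log2 change of 3.12 (SE 0.35, adjusted p = 0.000524) that rests on a mean of 21.2 counts per library. DKK1 and LAMB3 are on the list of p53 targets. The laminin 332 chains LAMB3 and LAMA3, found in the basement membrane of epithelia, rose by 0.81 and 0.84 (adjusted p = 0.00221 and 0.0339), while LAMB2 fell by 0.46 (adjusted p = 0.0401). LAMB3 gave 16.8, 18.3 and 16.2 CPM in siCont and 27.7, 28.7 and 33.9 CPM in siNGFR. Of 58 collagens and matrix genes 4 rose (6.90%, against 1.82% of all genes), although the median of the list was -0.09 and 36 members had a log2 change below 0. COL27A1 rose by 0.75, THBS1 by 0.72, FBN1 by 0.58 and COL3A1 by 0.41, and PLAUR, the urokinase receptor, fell by 0.64. Matrix genes called higher numbered 1, 1 and 2 when siCont replicates 4, 5 and 6 were left out in turn, and 4, 1 and 3 when siNGFR replicates 4, 5 and 6 were. Each of the fibroblast markers other than COL3A1 missed the test, and the 12 together summed to 32.4 to 37.4 CPM in siCont and 37.7 to 42.7 CPM in siNGFR, and their part in the matrix genes was not tested.

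The cytoplasmic actins fell. ACTB and ACTG1 gave 2797, 2430.0 and 2128 CPM against 1337, 1456 and 1825 CPM and 2140.0, 1954 and 1646 CPM against 1006, 1122 and 1418 CPM. The groups did not overlap for either gene, but siNGFR replicate 6 was nearest to siCont in both (log2 changes -0.67 and -0.69, SE 0.17 each, adjusted p = 0.0435 and 0.0368). COTL1, an actin-binding protein noticed after its value was seen, fell from 30.8, 27.8 and 27.7 to 12.1, 12.8 and 15.3 CPM (log2 change -1.10, SE 0.12, adjusted p = 0.000524), and profilin 2, PFN2, by 0.43. In the whole list of 119 cytoskeletal genes 6 fell (5.04%, against 2.5% of all genes), among them the actin pseudogenes ACTBP9 and ACTBP11, which share reads with ACTB, and 1 rose, the myosin gene MYH14 (0.54). Falls among the cytoskeletal genes numbered 3, 0 and 3 when siCont replicates 4, 5 and 6 were left out in turn, and 8, 0 and 5 when siNGFR replicates 4, 5 and 6 were.

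Among chromatin regulators there were 6 higher and 1 lower genes of 107 (5.61% and 0.935%, against 1.82% and 2.5% of all genes, median log2 change 0.03). INO80, the ATPase of a nucleosome remodelling complex, gave 7.72, 6.03 and 6.11 CPM in siCont replicates 4, 5 and 6 and 21.1, 22.1 and 18.5 CPM in siNGFR replicates 4, 5 and 6, a 3.12-fold rise (log2 change 1.64, SE 0.13, adjusted p = 0.000128). CHD2, a further remodeller, rose from between 9.78 and 11.3 to between 18.6 and 23 CPM (log2 change 1.00, SE 0.12, adjusted p = 0.000834), and KMT2D, a histone H3 lysine methyltransferase, from 52.8, 50.6 and 50.7 to 78.7, 88.5 and 92.8 CPM (log2 change 0.76, SE 0.11, adjusted p = 0.00215). KMT2B, KDM6B and DNMT3A rose by 0.80, 0.90 and 0.58, and EHMT1 fell by 0.49. When counts were scaled by library size alone, 5 were higher and 30 lower, against 155 and 4209 of all 19829 genes. Rises of chromatin genes numbered 5, 3 and 4 when siCont replicates 4, 5 and 6 were left out in turn, and 9, 3 and 6 when siNGFR replicates 4, 5 and 6 were.

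KMT2D, DNMT3A, KMT2B and CHD2 have more than 8000 bases of exon, and among genes that long the share called higher was above that of all genes. Of 2604 tested genes with 8000 or more bases of exon, 100 rose and 57 fell (3.84% and 2.19%), against 1.82% and 2.5% of all genes. Among genes under 200 bases 2 rose and 53 fell (0.278% and 7.36% of 720). The class medians stayed between -0.15 and 0.18. Other long genes with large rises were NBPF10 (8.36, 8.39 and 7.53 CPM against 20.7, 22.4 and 15.8 CPM, log2 change 1.28, adjusted p = 0.000524, overlapping NOTCH2NL), DNAH1, a dynein heavy chain (1.26, adjusted p = 0.000389), TRIO, an exchange factor for small GTPases (0.66, adjusted p = 0.00962), and HERC2, a giant ubiquitin ligase (111, 96.8 and 97 CPM against 154, 169.6 and 167 CPM, log2 change 0.69, adjusted p = 0.00513).

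**Figure D4:**
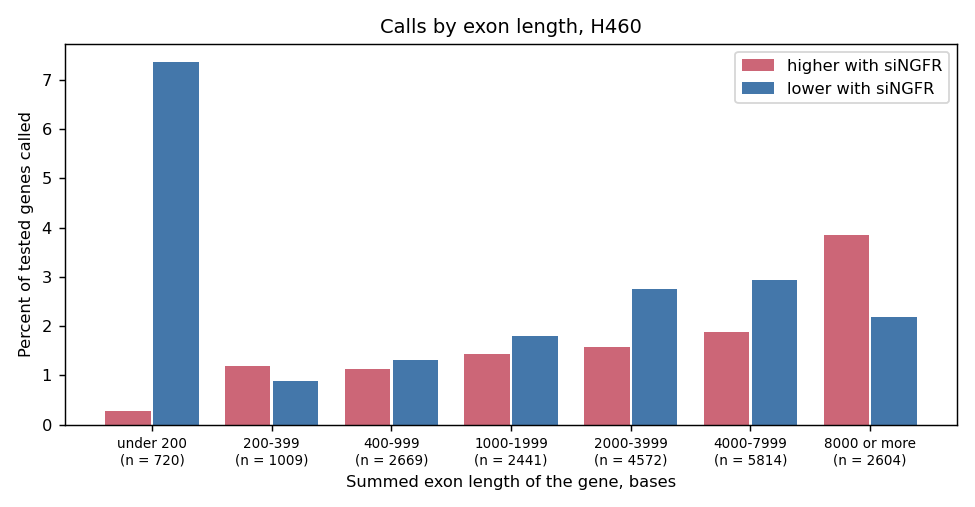
Percent of tested genes called higher (red) or lower (blue) with siNGFR in H460 by summed exon length in bases, with the number of tested genes under each class. Falls peak at 7.36% in genes under 200 bases, where the snRNAs lie, and rises reach 3.84% in genes of 8000 or more bases.

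Several of the long genes belong to families spread by recent segmental duplication, whose copies share reads. Chosen after their values were seen, and so without a test, the families NBPF, NPIP, TBC1D3, HERC2, SMG1 and PKD1 with their pseudogenes gave 9 of 12, 9 of 17, 5 of 13, 5 of 11, 5 of 8 and 3 of 5 tested copies called higher and 0 called lower. The families GOLGA6 and GOLGA8, AGAP and ANKRD36 gave 1 of 14, 2 of 8 and 2 of 4, again with 0 lower. Over all genes, 1.82% were called higher and 2.5% lower, and copies that share reads are not separate calls. The summed NBPF copies gave 129, 125 and 126 CPM in siCont replicates and 245, 243 and 214 CPM in siNGFR replicates, and the summed NPIP copies 352, 295 and 295 CPM against 508, 470.4 and 499 CPM. When counts were scaled by library size alone, the copies called higher numbered 8 in NBPF, 2 in NPIP, 2 in TBC1D3, 1 in HERC2, 0 in SMG1 and 1 in PKD1, and the medians of these families lay between 0.18 and 0.59. Of all 19829 genes, 155 were higher under that scaling. Every siNGFR sum of NBPF and NPIP was above every siCont sum, by 1.84-fold and 1.57-fold in the means. The 373 tested pseudogenes of ribosomal proteins had a median log2 change of 0.30 against 0.01 over all genes, and of -0.03 against -0.32 under library size scaling. The 84 ribosomal protein genes themselves gave 0 calls by edgeR and 2 by DESeq2, with 11 at an unadjusted p under 0.05 and a median of 0.10.

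The largest falls outside these groups were spread over unrelated functions. EHF, an epithelial ETS factor, gave 3.84, 3.63 and 3.12 CPM in siCont and 1.26, 0.805 and 1.06 CPM in siNGFR, a 3.40-fold fall without overlap (log2 change -1.77, SE 0.23, adjusted p = 0.00127). PLAGL1 and PEG10 are imprinted genes that are expressed from the paternal copy. PLAGL1, a zinc finger factor, gave 7.26, 6.31 and 4.68 CPM against 1.97, 2.03 and 2.46 CPM (log2 change -1.49, SE 0.20, adjusted p = 0.00180), and PEG10, derived from a retrotransposon, 11.7, 11.8 and 11.6 CPM against 5.74, 5.13 and 4.13 CPM (log2 change -1.23, SE 0.14, adjusted p = 0.000662). These 2 were the only ones called among 17 tested imprinted genes (11.8% lower, against 2.5% of all genes). UBQLN1, ubiquilin, a shuttle factor of the proteasome, gave 54, 57.1 and 60.4 CPM against 29.2, 24 and 24 CPM (log2 change -1.15, SE 0.12, adjusted p = 0.000389). All siNGFR values of these genes were below all siCont values, and each call held with any library left out.

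VBP1, a prefoldin subunit, fell by 1.38 and COX5A, a subunit of cytochrome c oxidase, by 1.37, from between 9.52 and 10.6 to between 3.26 and 4.84 CPM and from between 5.34 and 7.02 to between 2.15 and 2.92 CPM. In comparison, the 48 proteasome and 78 mitochondrial ribosomal protein genes gave 0 calls by edgeR (4 and 4 at an unadjusted p under 0.05, 0 and 0 by DESeq2). The nuclear genes of oxidative phosphorylation gave 2 falls of 117 (1.71%, against 2.5% of all genes). The translation factor gene EIF1AX went from 25.4, 29.1 and 28.1 to 15.1, 13.6 and 12.2 CPM (log2 change -1.02, SE 0.12, adjusted p = 0.000569). Among abundant transcripts, PTMA, prothymosin α, fell from 212, 214 and 214 to 124, 106 and 106 CPM (log2 change -0.93, SE 0.11, adjusted p = 0.000845). MIF, the macrophage migration inhibitory factor, fell from 104, 112 and 97.8 to 46.9, 50.2 and 57.1 CPM (log2 change -1.03, adjusted p = 0.000526), but MIF-AS1 on the opposite strand held 96.3% as many counts and fell by 1.04. The glucose transporter gene SLC2A3 fell by 1.01, the growth factor binding protein gene IGFBP4 by 0.84, VEGFB by 1.05 and the metallothionein gene MT2A by 1.13 (adjusted p from 0.000569 to 0.0149).

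Whether these changes differ from those in H1299, the line without p53, was tested in one fit of the 12 libraries, where a difference in siRNA cannot be told apart from one in cell line, and 34 genes had a higher and 58 a lower response in H460 of 21574 tested (0.426%). In that fit JUN had a log2 change of 1.24 in H460 and -0.63 in H1299 (difference 1.86, SE 0.24, adjusted p = 0.00477) and IER5 of 0.69 in H460 and -0.50 in H1299 (difference 1.20, SE 0.18, adjusted p = 0.0118). The p53 target CDKN1A moved likewise, with 1.34 in H460 and -1.06 in H1299, and so did DKK1, with 3.11 in H460 and 0.27 in H1299. Genes with a lower response in H460 included CTNNB1 (-0.75 in H460 and 0.16 in H1299; difference -0.91, SE 0.15, adjusted p = 0.0199), CCNF (-1.10 in H460 and 0.01 in H1299; difference -1.10, SE 0.18, adjusted p = 0.0191), PEG10 (-1.24 in H460 and 0.27 in H1299; difference -1.51, SE 0.20, adjusted p = 0.00477) and PTMA (-0.94 in H460 and 0.08 in H1299; difference -1.02, SE 0.16, adjusted p = 0.0166). No difference passed the test for HMOX1 (log2 change 1.32 in H1299, difference 0.63, SE 0.24, adjusted p = 0.215), SLC40A1 (0.61 in H1299, adjusted p = 0.164), INO80 (1.35, adjusted p = 0.746) or U12 (-2.22, adjusted p = 0.805), which does not show that they responded alike. One H1299 library weighed on this test: without H1299 siNGFR replicate 3, 2050 genes had a higher and 1903 a lower response in H460, and leaving out any other library gave 4 to 44 and 8 to 112.

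**Figure D5:**
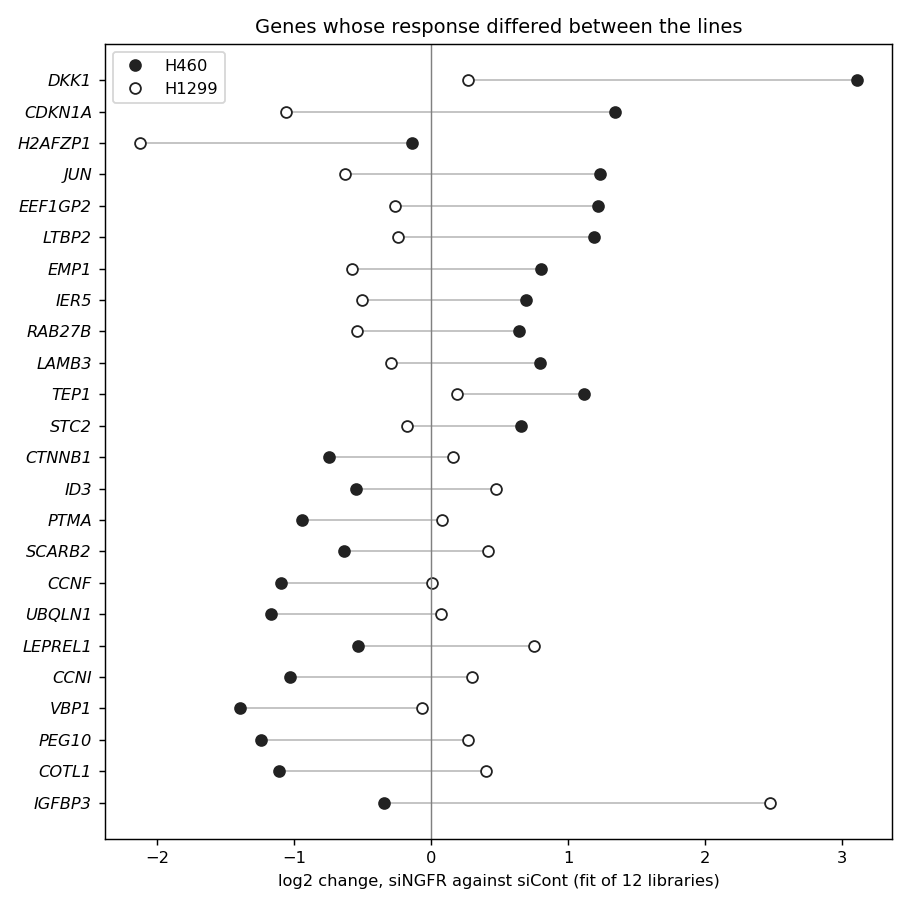
Log2 change with siNGFR in H460 (filled points) and in H1299 (open points), from one fit of the 12 libraries, for named genes whose response differed between the lines at an adjusted p under 0.05. A grey line joins the points of a gene. JUN and CDKN1A lie on opposite sides of 0 in the lines, and DKK1 has the rightmost filled point.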

How the data were processed

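Total RNA of 6 H460 and 6 H1299 cultures was depleted of ribosomal RNA, made into libraries with an Ion Total RNA-Seq kit and sequenced on an Ion Torrent instrument. The authors deposited read counts per gene, in whole numbers that were not normalized, in 1 table with summed exon lengths. STAR, Bowtie2 and hg38 appear in the processing notes of the submitters. Versions of these tools, the counting program and its use of strand were not given in the sources used here. The deposited tables also hold the authors' own comparisons (fold changes and probabilities) and 24 further columns of values per sample, and neither were used.

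Columns were mapped to groups by name, so a column number names a library and links it to no particular sample. Of 64253 rows, 4146 off the primary chromosomes and 10893 that repeat another row were left out. Genes were filtered by filterByExpr, and scaling was by TMM. The test was the quasi-likelihood test of edgeR (edgeR 4.0.16, limma 3.58.1, R 4.3.3) on 3 against 3 libraries, and the difference between the lines on all 12, each with Benjamini-Hochberg adjustment over all genes tested and a threshold of 0.05. DESeq2 1.42.0, other scalings and filters, a block on the column number and leaving out each library were alternatives, and the scripts were tested on simulated counts. Named genes were the largest changes outside the p53 list with at least 400 bases of exon and a mean of 50 counts, up to 3 genes per direction and list, and abundant called genes, with exceptions said where they occur, and a few genes that meet the rule are not reported here. The members and lists were chosen with earlier results of these data known. Replicates are separate submitted samples, and their spread sets every p. Promoter and small RNA sequences came from RefSeq (GRCh38.p14) and GENCODE 29.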

Additional observations from a re-analysis of the deposited data

Results flagged for a closer look

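The genes below drew attention because their log2 change with siNGFR in H460 differed from that in H1299 in a test of the difference itself (edgeR quasi-likelihood test over all 12 libraries, Benjamini-Hochberg), and values are H460 minus H1299. The response of the secreted IGF-binding protein gene IGFBP3 was -0.34 in H460 and 2.47 in H1299. Among genes with a lower response in H460, the differences were IGFBP3 -2.82 (SE 0.23, adjusted p = 6.56e-05), COTL1 -1.51 (SE 0.23, adjusted p = 0.0118), PEG10 -1.51 (SE 0.20, adjusted p = 0.00477), VBP1 -1.32 (SE 0.25, adjusted p = 0.0402), CCNI -1.32 (SE 0.17, adjusted p = 0.00477) and LEPREL1 -1.29 (SE 0.18, adjusted p = 0.00935). They were also lower for UBQLN1 -1.24 (SE 0.16, adjusted p = 0.00477), CCNF -1.10 (SE 0.18, adjusted p = 0.0191), SCARB2 -1.06 (SE 0.19, adjusted p = 0.0324), PTMA -1.02 (SE 0.16, adjusted p = 0.0166), ID3 -1.02 (SE 0.19, adjusted p = 0.0353) and CTNNB1 -0.91 (SE 0.15, adjusted p = 0.0199).

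Among genes with a higher response in H460, the differences were STC2 0.83 (SE 0.16, adjusted p = 0.0405), TEP1 0.93 (SE 0.17, adjusted p = 0.0353), LAMB3 1.09 (SE 0.19, adjusted p = 0.0202), RAB27B 1.18 (SE 0.19, adjusted p = 0.0184), IER5 1.20 (SE 0.18, adjusted p = 0.0118) and EMP1 1.38 (SE 0.22, adjusted p = 0.0166). They were also higher for LTBP2 1.43 (SE 0.25, adjusted p = 0.0245), EEF1GP2 1.49 (SE 0.30, adjusted p = 0.0476), JUN 1.86 (SE 0.24, adjusted p = 0.00477), H2AFZP1 1.98 (SE 0.25, adjusted p = 0.00464), CDKN1A 2.40 (SE 0.30, adjusted p = 0.00464) and DKK1 2.84 (SE 0.33, adjusted p = 0.00402). H2AFZP1, a histone pseudogene, changed little in H460 (-0.14) and was lower in H1299 (-2.12), and EEF1GP2 is likewise a pseudogene whose reads can come from its parent gene. The count of such genes depended on single libraries, as the report gives it.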

How the results depend on the processing

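Scaling by library size alone gave 155 higher and 4209 lower genes in H460, the median of all genes moved from 0.01 to -0.32, and the share of calls that were higher went from 42.1% to 3.55%. Without a filter on low counts 760 were higher and 831 lower, with genes of at least 400 bases 561 and 607, and in one fit of the 12 libraries 195 and 266. Leaving out 1 library gave 92 to 882 higher and 111 to 668 lower genes. The column numbers did not pair the libraries (correlations of deviations 0.03, 0.07 and -0.00), and with the replicate block 261 genes were higher and 297 lower.

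For the difference between the lines (34 higher, 58 lower), scaling by library size alone gave 156 and 2879, DESeq2 196 and 271, no filter 99 and 237, genes of at least 400 bases 47 and 91, and the replicate block 31 and 19. Leaving out 1 library gave 4 to 2050 and 8 to 1903. The share of counts in short genes was 8.11 percentage points higher with siNGFR under the 400-base limit, 5.78 under 300 bases (exact permutation test, p = 0.2) and -1.94 under 200 bases (p = 0.1, the smallest possible), and 6.86 to 9.75 with 1 library left out. The causes were not tested. Of 141 genes followed, 126 were called, 46 of them under every alternative that tested them. Some alternatives left genes out, as the filter of at least 10 counts in every library did. No gene changed sign between the main fit and an alternative when either of these called it. Sign changes of genes called in neither were not counted. The number of libraries, 3 a group, and genes of few counts limit the precision.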
